A study of Drosophila melanogaster with 28 samples.

Results

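The data describe where the hybrid incompatibility protein HMR was found on chromosome 4 of Drosophila melanogaster in SL2 cells, an embryo-derived cultured line. Overlapping ChIP-seq peaks (joined where they shared at least 1 bp) of all 18 deposited peak lists were merged, and every merged region on chromosome 4 was kept. This gave 167 of the 12046 merged regions of the genome. The lists came from cells stably transfected with FLAG-HA-HMR, either full length (HMRwt-tg) or lacking the C-terminal end (HMRdC-tg). In both, the transgene was driven by the metallothionein promoter (pMT), switched on by copper (CuSO4, 250 µM, 20 to 24 h), and Myc-tagged LHR, the partner protein of HMR, was expressed alongside. Anti-FLAG, which sees only the tagged protein, had 5 libraries for each construct. Anti-HMR, which can also see the endogenous HMR that both kinds of cells keep, had 4 libraries for each construct from the chromatin of 4 of these. Cells had been selected with hygromycin. The NEBNext kit was used for replicate 5 of both anti-FLAG groups and the Microplex kit elsewhere. The 10 input libraries were not analysed here. Nothing in the labels says whether the replicates were separate inductions, so p-values measure the spread between these libraries only.

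Chromosome 4 is the smallest chromosome of the fly. Although it is gene-rich over its sequenced arm, it carries the marks of heterochromatin: it is covered by HP1a, is dense in transposable elements and is bound by POF, a protein particular to this chromosome, and many of its genes are nevertheless expressed. HMR and LHR act together in a complex that associates with HP1a-rich chromatin near centromeres, and both are required for the lethality of hybrid males.

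The lists were of very unequal length, from 465 to 9049 peaks (median 2210), and 2 stood apart. Anti-FLAG HMRwt-tg library 2 had 465 peaks, 11 of them on chromosome 4, and anti-HMR HMRwt-tg library 3 had 9049 peaks, 139 of them on chromosome 4. The remaining 16 lists held 13 to 72 peaks on the chromosome. The lists give positions without scores or read depth, so the strength of a peak and its error are unknown. The lines of a list do not follow the chromosome (0 of 18 lists do), and for 2 lists of one antibody the regions they share came in a similar sequence of lines. Spearman's rho was 0.396 to 0.960 with a median of 0.823 in 73 pairs, as a description across regions, which are not independent. The line of a peak was therefore used as its rank and is given as line position, with 0% at the top of a list and 100% at its end. What the authors sorted the lines by was not stated.

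HMR was found again and again at a small set of places on chromosome 4, most of them at gene starts. Of the 167 regions, 47 were called in at least 9 of the 18 lists (28.1%). This share was 16.6% of 8957 regions on the arms of chromosomes 2 and 3 and 9.87% of 1337 in their pericentromeric territories. On X it was 23.5% of 1571. On chromosome 4, another 24 regions were called in 2 to 8 lists, and 96 in a single list. Of these 96, 75 came from the anti-HMR list of 9049 peaks. Without that list, the chromosome held 92 regions, 45 of them in at least 9 of the remaining 17 lists, whereas leaving out the list of 465 peaks gave 167 and 47. The count of recurrent regions thus moved little without either list, and the count of all regions moved by more than 1.5 times without the longest. With a recurrence of 9 lists as the limit, 2 regions lay just inside (exactly 9 lists) and 5 just outside (8 lists).

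Gene starts held most of the recurrent regions. A region was counted at a gene start when its midpoint lay within 250 bp of an annotated transcript start. Of 48 such regions, 32 were recurrent, as were 10 of 34 regions between genes, 4 of 51 in introns and 1 of 34 in exons. Bases within 250 bp of a start make up 5.93% of the chromosome, and 68.1% of the recurrent regions were there. On the arms, 8.82% of the bases and 74.4% of 1486 recurrent regions were within this distance. Of the 80 protein-coding genes, 35 had a peak at a start in at least 9 lists and 31 had none in any list.

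**Figure D1:**
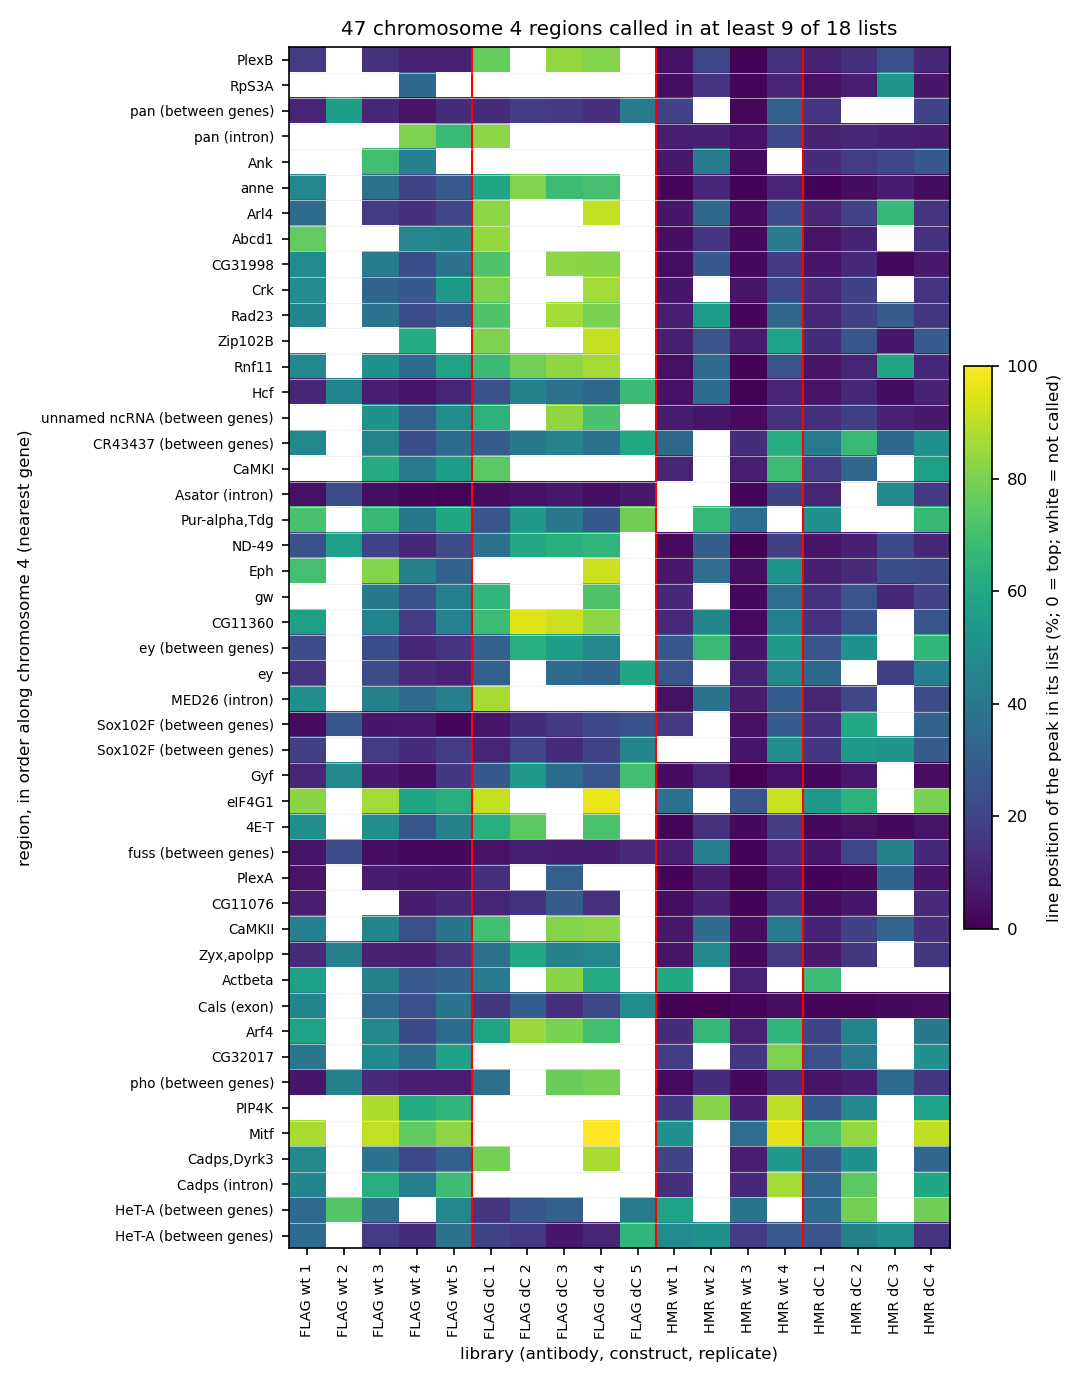
The 47 recurrent regions (rows, in order along the chromosome, named by the gene or genes within 250 bp or the nearest one) in each of the 18 lists (columns). Colour gives the line position of the peak in its list, dark for the top and yellow for the end, and white squares are lists without a peak. Of the 28 gene-start rows with anti-FLAG peaks in both constructs, 27 are lighter in the HMRdC-tg columns by their median line position and 1 is darker, and Asator (intron) and fuss are dark in both.

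The sequences of 8 regions that the results below return to are shown here. They include the places called in all 18 lists. Others are examples, and not all, of the regions called by one antibody only or by anti-FLAG for one construct only. Each is from the RefSeq genome (Release 6, the coordinates of dm6), the plus strand of chromosome 4, up to 200 bases centred on the region and outside annotated exons. Capitals mark TATCGATA and CGATA on either strand (CGATA lies within TATCGATA), the sequences that the factors DREF and BEAF-32 are known to bind. Upstream of Asator and in the Cadps intron neither was found. GGTCACAC (the motif of M1BP), GAGAGAG and CACACACA, also searched on both strands, were not in these windows.
Upstream of fuss (chr4:979931-980130), in 18 of 18 lists: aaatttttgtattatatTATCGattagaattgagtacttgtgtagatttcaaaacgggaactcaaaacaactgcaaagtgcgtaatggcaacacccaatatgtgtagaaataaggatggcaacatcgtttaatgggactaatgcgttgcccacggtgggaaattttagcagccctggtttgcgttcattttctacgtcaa
Upstream of the start of Hcf (chr4:359795-359937), in 18 of 18 lists: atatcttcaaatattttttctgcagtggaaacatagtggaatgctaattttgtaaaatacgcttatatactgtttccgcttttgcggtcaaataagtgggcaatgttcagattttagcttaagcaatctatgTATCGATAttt
Intron of Asator (chr4:486651-486850), in 10 of 10 anti-FLAG and 5 of 8 anti-HMR lists: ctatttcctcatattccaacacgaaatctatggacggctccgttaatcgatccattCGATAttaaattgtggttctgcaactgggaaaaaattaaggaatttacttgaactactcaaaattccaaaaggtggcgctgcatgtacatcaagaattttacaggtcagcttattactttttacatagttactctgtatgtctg
Upstream of Asator (chr4:490148-490347), in 0 of 10 anti-FLAG and 8 of 8 anti-HMR lists: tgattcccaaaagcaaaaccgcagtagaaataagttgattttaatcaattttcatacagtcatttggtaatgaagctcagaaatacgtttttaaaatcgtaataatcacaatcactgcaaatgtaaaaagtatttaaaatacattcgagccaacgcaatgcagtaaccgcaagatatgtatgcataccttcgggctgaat
Intron of mGluR (chr4:941442-941641), in 0 of 10 anti-FLAG and 8 of 8 anti-HMR lists: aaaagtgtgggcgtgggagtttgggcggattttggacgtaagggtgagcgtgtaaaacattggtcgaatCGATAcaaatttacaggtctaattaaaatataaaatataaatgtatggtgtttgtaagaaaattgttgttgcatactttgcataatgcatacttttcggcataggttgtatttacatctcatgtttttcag
Between genes, nearest start snoRNA:CD-24 (chr4:63421-63620), in 4 of 5 HMRwt-tg and 0 of 5 HMRdC-tg anti-FLAG lists: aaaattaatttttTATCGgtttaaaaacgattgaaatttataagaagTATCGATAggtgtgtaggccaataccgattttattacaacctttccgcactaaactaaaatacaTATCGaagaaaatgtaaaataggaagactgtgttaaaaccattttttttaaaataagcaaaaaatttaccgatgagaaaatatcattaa
Intron of Cadps (chr4:1234860-1235059), in 4 of 5 HMRwt-tg and 0 of 5 HMRdC-tg anti-FLAG lists: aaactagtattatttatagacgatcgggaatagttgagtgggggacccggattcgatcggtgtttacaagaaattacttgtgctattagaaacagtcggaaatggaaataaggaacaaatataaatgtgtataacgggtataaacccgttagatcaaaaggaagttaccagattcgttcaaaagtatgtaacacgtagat
Upstream of ey (chr4:696840-697039), in 15 of 18 lists: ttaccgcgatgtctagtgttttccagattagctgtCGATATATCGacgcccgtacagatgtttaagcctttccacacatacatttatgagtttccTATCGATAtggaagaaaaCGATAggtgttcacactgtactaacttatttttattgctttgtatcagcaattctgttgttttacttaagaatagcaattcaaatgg

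The 200 bases at the centre of a recurrent region held TATCGATA in 7 of 47 cases (14.9%) and CGATA in 30 (63.8%). Of all 6654 windows of the same length on the chromosome, 1.80% held TATCGATA and 25.04% held CGATA. Around the 142 starts of protein-coding genes on the chromosome the shares were 6.34% and 42.3%, and in the 1486 recurrent arm regions 10.4% and 47.5%. Regions called in a single list resembled the chromosome at large, with 2.08% and 31.3%. The 7 regions with TATCGATA include the starts of Hcf, Crk, Eph, Actbeta and PIP4K, and 2 lie away from starts, upstream of ey and in the telomeric array. GGTCACAC was in 3 recurrent regions (6.38%, against 0.316% of windows and 11.4% of recurrent arm regions), at the starts of Rad23, of Zyx and apolpp, and of Dyrk3. These are matches of letters and not measured binding sites.

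Recurrent regions were spread over the whole chromosome. Each of 10 equal parts held 3 to 7 of them, and the median distance from one to the next was 23110 bp. The widest gap, 97839 bp, ran from the start of Crk, an adaptor protein of receptor signalling, to that of Rad23, which acts in DNA repair and protein turnover. The first recurrent region along the chromosome lay at the start of PlexB, a semaphorin receptor (chr4:43701-44019), and the last in the telomeric array of HeT-A elements (chr4:1318125-1318409, 17 of 18 lists). Beyond the last gene, which ends 76372 bp before the end of the sequence, there were 10 regions, all on HeT-A and 2 of them recurrent. HeT-A is a retrotransposon that forms the telomeres of the fly.

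**Figure D2:**
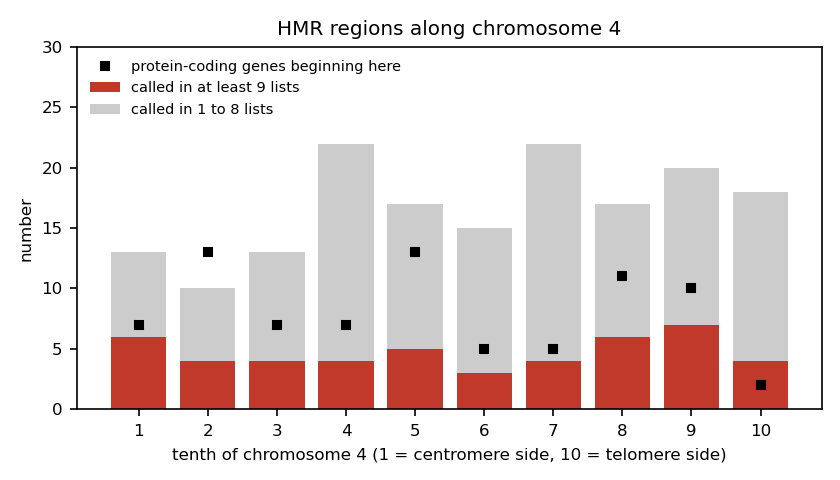
Number of HMR regions (bars) and of protein-coding genes that begin (squares) in each of 10 equal parts of chromosome 4, from the centromere side to the telomere side. Red is the number called in at least 9 lists, between 3 and 7 in every part, and grey the remaining regions.

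Recurrent regions seldom held transposable elements. Of the 47, 2 had an annotated element within the central 200 bp (4.26%), whereas 31.1% of all 200 bp windows of the chromosome and 24 of the 96 regions called in a single list had one. Both were in the telomeric array. INE-1, a short element frequent on this chromosome, overlapped 13 regions. The authors removed reads with a mapping quality under 2, as in repeats, and its part in these counts was not tested.

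The genes with a recurrent start peak came from several kinds of functions, read here against 35 of 80 for all coding genes of the chromosome. In a list of general cell functions, 9 of 14 genes had a start peak in at least 9 lists, among them RpS3A (a ribosomal protein), eIF4G1 (a scaffold of translation initiation), gw (microRNA silencing) and Zip102B (a zinc transporter). For ligands and signalling, 4 of 7 did, namely the activin-type ligand Actbeta, Crk, Dyrk3 and PIP4K. For synapse and axon guidance, 5 of 11 did: Cadps, PlexA, PlexB, Eph and CaMKI. Of 11 listed transcription factors, only ey, the Pax6 gene of eye development, and Hcf, a cofactor of transcription, did. Another 7 had no start peak in any list (pan, toy, zfh2, sv, Sox102F, onecut and dati). The gene list leaves out the transcription factor Mitf, with a start peak in 11 lists, and the DNA-binding protein pho, with none. Recurrent regions also lay near some of the transcription factor genes, as a pair of neighbouring ones upstream of Sox102F (16 and 15 lists) and one 460 bp from a start of pan, the TCF factor of Wnt signalling (15 lists). The genes that overlapped the most regions were Cadps and CG32017, with 7 each, of which 2 in Cadps and 1 in CG32017 were recurrent.

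Chromosome 4 was more densely occupied than the arms in anti-FLAG. The density of peaks was 27.7 ± 14.1 per Mb (SD, n = 10 libraries) on chromosome 4 and 18.3 ± 8.84 per Mb on the arms, a geometric mean ratio of 1.53, and it was higher on chromosome 4 in 10 of 10 libraries (exact sign-flip permutation test, p = 0.00195, adjusted 0.0282 over 32 tests, the smallest p that 10 libraries allow). Without HMRwt-tg library 2 the densities were 29.9 and 19.9 per Mb, higher on chromosome 4 in the other 9 libraries (exact sign-flip permutation test, p = 0.00391). The ratio ranged from 1.51 to 2.58 for HMRwt-tg and from 1.05 to 1.45 for HMRdC-tg. Anti-HMR showed a higher density on chromosome 4 as well, with a ratio of 1.342 to 3.165 (n = 8 libraries), which was not tested. At coding genes, a start peak was present for 36.5% ± 18.3 (SD, n = 5) of chromosome 4 genes and 14.7% ± 8.91 of arm genes with HMRwt-tg, and for 24.0% ± 13.3 (SD, n = 5) against 14.1% ± 5.92 with HMRdC-tg.

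In anti-FLAG, a smaller part of the peaks lay at gene starts on chromosome 4 than on the arms. Starts are also sparser there, since 5.93% of chromosome 4 bases and 8.82% of arm bases lie within 250 bp of one. The percentages below are not corrected for this, so they do not show a weaker preference for starts on chromosome 4. Of the chromosome 4 peaks in anti-FLAG, 54.6% ± 11.9 (SD, n = 10) were at gene starts, and of the arm peaks 76.1% ± 2.97, with the lower value on chromosome 4 in 10 of 10 libraries (exact sign-flip permutation test, p = 0.00195, adjusted 0.0282). In anti-HMR, the values were 56.8% ± 11.7 (SD, n = 8) and 47.4% ± 12.7, higher on chromosome 4 in 6 of 8 libraries (exact sign-flip permutation test, p = 0.0391, adjusted 0.0893), so this difference did not hold after adjustment. Leaving out any 1 of 6 of the 8 libraries gave an exact permutation p from 0.0625 to 0.0781.

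**Figure D3:**
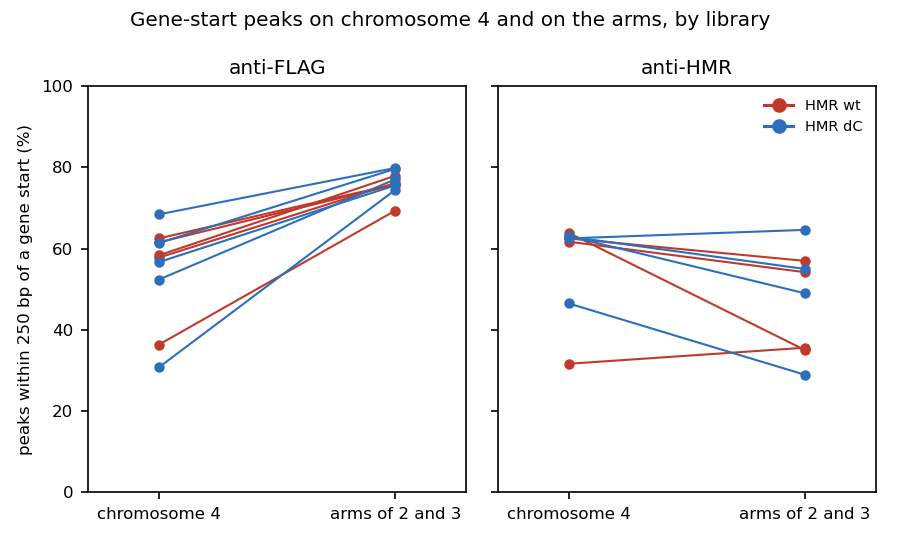
Percentage of peaks within 250 bp of a gene start on chromosome 4 (left points) and on the arms of chromosomes 2 and 3 (right points), with a line for each library, for anti-FLAG (left panel) and anti-HMR (right panel). All 10 anti-FLAG lines rise to the right, and 6 of the 8 anti-HMR lines fall.

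The design asks whether HMR is placed on chromatin differently without its C-terminal end. Fewer of the anti-FLAG peaks lay on chromosome 4 with HMRdC-tg. The share of the list was 1.91%, 2.37%, 2.12%, 1.63% and 1.90% in the 5 HMRwt-tg libraries and 1.42%, 1.18%, 1.58%, 1.45% and 1.19% in the 5 HMRdC-tg libraries. All HMRwt-tg values were above all HMRdC-tg values (means 1.98% ± 0.276 and 1.36% ± 0.176, SD, n = 5 each; two-sided exact permutation test, p = 0.00794, adjusted 0.0282). Without HMRwt-tg library 2, whose list is the shortest, the means were 1.89% and 1.36% (exact permutation test, p = 0.00794). Both sides of the chromosome were lower: the share on the centromere-proximal side of the middle fell by 0.228 percentage points (p = 0.00794, exact permutation test, adjusted 0.0282) and the distal share fell by 0.391 (p = 0.0159, exact permutation test, adjusted 0.0508). The distal difference did not pass 0.05 after adjustment, nor without the 2 NEBNext libraries (p = 0.0571, exact permutation test). Split by gene starts, the share of the list at starts was 1.08% ± 0.178 with HMRwt-tg and 0.749% ± 0.255 with HMRdC-tg (SD, n = 5 each; exact permutation test, p = 0.0556) and the share away from starts 0.903% ± 0.342 and 0.615% ± 0.142 (SD, n = 5 each; exact permutation test, p = 0.0714). Neither part alone passed 0.05. Without HMRwt-tg library 2 the start share did (1.135% and 0.749%; exact permutation test, p = 0.0317) and the share away from starts did not (0.752% and 0.615%; exact permutation test, p = 0.143). Without HMRwt-tg library 4 it was the reverse. The share away from starts passed (0.959% and 0.615%; exact permutation test, p = 0.0476) and the start share did not (exact permutation test, p = 0.0556). Without the 2 NEBNext libraries neither passed (exact permutation tests, p = 0.200 at starts and 0.0571 away from them). In all libraries, the percentage of chromosome 4 peaks at starts did not differ beyond the spread between libraries (55.3% ± 10.8 and 53.9% ± 14.2, SD, n = 5 each; exact permutation test, p = 0.802).

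**Figure D4:**
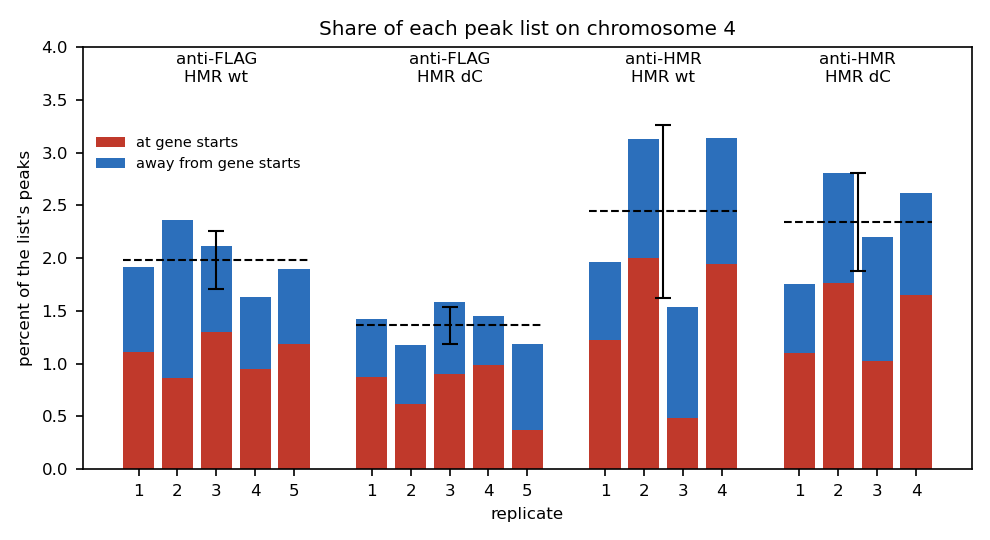
Share of each peak list that lay on chromosome 4, for every library, divided into peaks at gene starts (red) and away from them (blue). Dashed lines and error bars are the mean and SD of the group, 1.98% and 1.36% for anti-FLAG and 2.44% and 2.34% for anti-HMR.

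Against the pericentromeric territories of chromosomes 2 and 3, chromosome 4 peaks were relatively more frequent with HMRdC-tg. Among gene-start peaks alone, those of chromosome 4 were relatively less frequent than those of the arms. These ratios were also chosen after the data had been seen. The log2 ratio of chromosome 4 to pericentromeric peaks was -2.16 ± 0.11 with HMRwt-tg and -1.39 ± 0.13 with HMRdC-tg (SD, n = 5 each), a difference of 0.77 with no overlap between the constructs (exact permutation test, p = 0.00794, adjusted 0.0282). The log2 ratio of chromosome 4 gene-start peaks to arm gene-start peaks, which leaves out the peaks away from starts, was -5.60 ± 0.20 with HMRwt-tg and -6.35 ± 0.54 with HMRdC-tg (SD, n = 5 each), again with no overlap (exact permutation test, p = 0.00794, adjusted 0.0282). For anti-HMR, the same differences were 0.31 (exact permutation test, p = 0.400, n = 4 each) and 0.01 (exact permutation test, p = 1, n = 4 each).

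Chromosome 4 gene-start peaks stood further down the anti-FLAG lists with HMRdC-tg. This comparison was chosen after the data had been seen. The median line position of chromosome 4 gene-start peaks was 46.5%, 46.1%, 44.2%, 28.3% and 36.5% in the 5 anti-FLAG HMRwt-tg lists and 65.8%, 60.3%, 68.4%, 76.1% and 69.1% in the 5 HMRdC-tg lists. The constructs did not overlap (means 40.3% ± 7.85 and 67.9% ± 5.74, SD, n = 5 each; exact permutation test, p = 0.00794, adjusted 0.0282). For the chromosome 4 peaks away from starts that each list held, which need not be the same places, the median line position was 40.3% ± 4.31 with HMRwt-tg and 25.8% ± 9.87 with HMRdC-tg (SD, n = 5 each; exact permutation test, p = 0.0317, adjusted 0.0781, which does not pass 0.05). Without HMRwt-tg library 2, the difference was 29.1 percentage points at starts (exact permutation test, p = 0.00794) and -13.6 away from them (exact permutation test, p = 0.0556). Without HMRwt-tg library 4 the p away from starts was also 0.0556 (exact permutation test). Gene-start peaks on the arms stood at 44.4% ± 3.09 and 46.0% ± 1.43 (SD, n = 5 each; exact permutation test, p = 0.373).

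The gap between start and other chromosome 4 peaks within a list was 0.06 ± 10.4 percentage points with HMRwt-tg and 42.1 ± 10.9 with HMRdC-tg (SD, n = 5 each; exact permutation test, p = 0.00794, adjusted 0.0282). This gap includes the change away from starts, where the peaks need not be the same places in both constructs. The gap between chromosome 4 and arm gene starts was -4.08 ± 9.42 and 21.95 ± 6.66 percentage points (SD, n = 5 each; exact permutation test, p = 0.00794, adjusted 0.0282). Among the first 465 lines of every list, as many as the shortest has, the 5 HMRwt-tg lists held 7, 4, 7, 7 and 7 chromosome 4 gene-start peaks and the 5 HMRdC-tg lists 2, 1, 0, 1 and 0. They held 6, 7, 7, 5 and 7 against 5, 6, 7, 4 and 5 chromosome 4 peaks away from starts. In lists of equal length the share at gene starts was lower with HMRdC-tg (1.38% against 0.172%; exact permutation test, p = 0.00794, n = 5 each). The difference elsewhere on the chromosome did not pass the test (1.38% against 1.16%; exact permutation test, p = 0.270, n = 5 each). These differences were not tested against each other. The first lines rest on the same line order as the line positions, so these counts are not separate evidence.

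**Figure D5:**
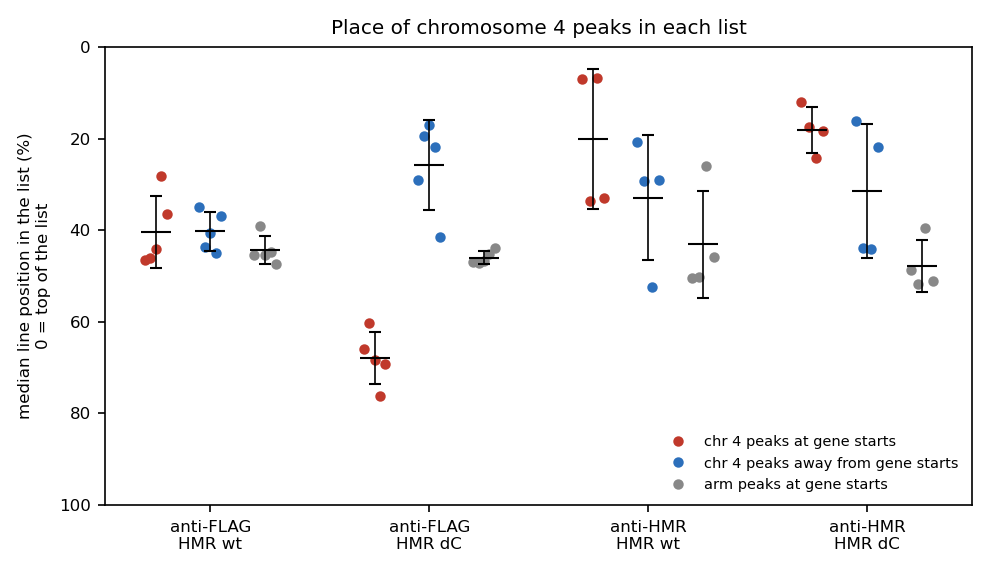
Median line position in its list of chromosome 4 peaks at gene starts (red), chromosome 4 peaks away from starts (blue) and arm peaks at gene starts (grey), with 1 point per library and the mean and SD in black. The axis is inverted, so that the top of the list is at the top. The red points of anti-FLAG HMRdC-tg lie at 60.3% to 76.1%, below all other groups.

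The shift was also read region by region from the same lines, which is not separate evidence. Of the 32 recurrent regions at gene starts, 28 had a peak in both constructs in anti-FLAG, and 27 of these stood lower in the HMRdC-tg lists by their median line position (median shift 32.6 percentage points). Of 1101 recurrent arm regions at gene starts with peaks in both constructs, 652 did (59.2%, median shift 1.78). Chromosome 4 regions away from starts also stood mostly lower with HMRdC-tg when the same places were compared, 11 of 14 with a median shift of 4.77. In anti-HMR, 18 of 32 regions at chromosome 4 starts stood lower (median shift 0.66), 13 of 15 away from starts (5.82) and 779 of 1080 at arm starts (72.1%, 8.90). The recurrent regions were chosen with these same lists, so the counts are a description. At the start of PlexB, the line position was 17.8%, 14.8%, 9.89% and 9.76% in the 4 HMRwt-tg lists that held it and 76.4%, 83.9% and 81.3% in the 3 HMRdC-tg lists. The region beside pho, a DNA-binding protein of Polycomb silencing, lay 331 bp from its start and also stood lower with HMRdC-tg in some lists. It was at 6.37%, 43.7%, 11.7%, 8.52% and 8.25% with HMRwt-tg and at 36.9%, 77.4% and 78.9% in 3 of the 5 HMRdC-tg lists. The start of Hcf, called everywhere, stood at 5.85% to 45.2% (median 10.3%) with HMRwt-tg and at 24.8% to 68.3% (median 37.3%) with HMRdC-tg. The exception was the start that Pur-alpha shares with Tdg, at 40.5% to 71.4% in 4 HMRwt-tg lists and 26.3% to 78.5% in 5 HMRdC-tg lists.

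There were 6 regions called in all 10 anti-FLAG lists, and 4 of them were away from starts. Such regions had to be in HMRwt-tg library 2 and HMRdC-tg library 5, with 11 and 13 chromosome 4 peaks. Of these peaks, 36.4% and 30.8% were at starts, the lowest value of each construct. The 4 of 6 therefore depends on these short lists, and the same count was not made on the arms. Those at starts were Hcf and Gyf, a regulator of translation. The other 4 lay upstream of fuss (a Ski and Sno family regulator), in the intron of Asator (a kinase of the tau-tubulin kinase family), upstream of Sox102F and beside pan. The region upstream of fuss stood at 5.57%, 23.4%, 3.99%, 2.71% and 2.69% with HMRwt-tg and at 5.10%, 8.97%, 8.03%, 8.003% and 11.8% with HMRdC-tg. That in the Asator intron stood at 4.67%, 23.2%, 3.62%, 1.92% and 0.8294% and at 2.81%, 4.77%, 6.76%, 4.12% and 7.14%. In both cases the constructs overlapped, and no HMRdC-tg value was beyond 11.8%. The medians were higher with HMRdC-tg, 3.99% and 8.03% upstream of fuss and 3.62% and 4.77% in the Asator intron. The highest HMRwt-tg value of each came from library 2, the list of 465 peaks. Without it HMRwt-tg reached 5.57% and 4.67%, which still overlap with HMRdC-tg. The region upstream of Sox102F stood further down with HMRdC-tg (median 16.6%, up to 25.2%, against 6.27%, up to 26.9%), as did the one beside pan (median 17.1%, up to 41.5%, against 11.6%, up to 56.1%), again with overlapping ranges. Here too the highest HMRwt-tg values came from library 2, and the other HMRwt-tg lists reached 6.69% and 13.2%. The region upstream of ey, 749 bp from its start, stood at 23.7%, 23.9%, 11.6% and 15.2% in 4 HMRwt-tg lists and at 31.5%, 62.6%, 55.5% and 46.3% in 4 HMRdC-tg lists, so here the constructs did not overlap. Neither HMRwt-tg library 2 nor HMRdC-tg library 5 held it. The widest region of the chromosome, 851 bp in Cals (a calsyntenin) and sv (the Pax2 gene), stood at 24.5% to 45.9% in 4 HMRwt-tg lists and at 13.9% to 48.4% in 5 HMRdC-tg lists, which overlap. In anti-HMR it was among the first lines of every list, at 0.348% to 4.14%.

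In terms of presence alone, no region passed a test after adjustment. With 5 libraries of each construct and adjustment over 12046 regions, a region could pass only if very many others did. The outcome therefore does not show that presence was the same. With Fisher's exact test, 3 of the 167 regions were called in more HMRwt-tg than HMRdC-tg libraries in anti-FLAG at an unadjusted p under 0.05 (1.8%, against a background of 0.656% of all 12046 regions) and 0 in more HMRdC-tg libraries (background 0%). All 3 had 4 of 5 against 0 of 5 libraries (Fisher's exact test, p = 0.0476, adjusted p = 1). They were the start of CG32017 (chr4:1146535-1146860), an intron of Cadps, which primes secretory vesicles (chr4:1234808-1235112), and a place between genes 2124 bp from the nearest start (chr4:63384-63657). In anti-HMR, the first pair were called in 3 of 4 libraries of each construct and the third in 1 of 4 of each. Without the library of 465 peaks, 9 chromosome 4 regions passed the unadjusted limit (5.39%, background 2.07%). Without HMRdC-tg library 1, 5 did (2.99%, background 1.31%), and without HMRdC-tg library 4 also 5 (2.99%, background 0.864%). Among the regions called in 4 against 1 libraries (Fisher's exact test, p = 0.206) were the starts of Eph, an ephrin receptor, and of Mitf, a transcription factor of lysosome genes, and an intron of MED26, a Mediator subunit. The start of PIP4K was called in 3 against 0 (Fisher's exact test, p = 0.167).

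Counted over all coding genes, the start peak was found in more HMRwt-tg than HMRdC-tg anti-FLAG libraries for 32 genes, in fewer for 3 and in as many (above 0) for 9. In anti-HMR the counts were 16, 5 and 27. Of the recurrent regions in anti-FLAG, 26 of 47 on chromosome 4 were in more HMRwt-tg and 7 in more HMRdC-tg libraries, whereas on the arms 267 of 1486 were in more HMRwt-tg and 578 in more HMRdC-tg libraries. For anti-HMR, 11 of the 47 were in more HMRwt-tg and 6 in more HMRdC-tg libraries. The arms leaned the same way there, with 495 and 278 of 1486. The 3 genes with a start peak in fewer HMRwt-tg anti-FLAG libraries were Zip102B, in 1 against 2 libraries, and Pur-alpha and Tdg, which share one region, in 4 against 5. The lists held 465 to 4427 peaks for HMRwt-tg and 1093 to 3096 for HMRdC-tg. Within the first 465 lines of every list, 5 chromosome 4 regions were called in more HMRwt-tg libraries at an unadjusted p under 0.05 (10.6% of 47, background 3.73% of 1529) and 0 in more HMRdC-tg libraries (background 2.94%). By kind of gene, the start peak was in more HMRwt-tg libraries for 8 of 14 general genes, 6 of 7 signalling genes, 5 of 11 synaptic genes and 1 of 11 transcription factors. These are the gene lists above, which do not hold Mitf (4 HMRwt-tg against 1 HMRdC-tg libraries).

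With anti-HMR, no difference between the constructs passed the test on chromosome 4. The share was 1.96%, 3.13%, 1.54% and 3.14% with HMRwt-tg and 1.76%, 2.81%, 2.196% and 2.61% with HMRdC-tg, with overlapping values (means 2.44% ± 0.820 and 2.34% ± 0.465, SD, n = 4 each; exact permutation test, p = 0.800; the smallest p that 4 against 4 libraries allow is 0.0286). Without HMRwt-tg library 3, whose list is the longest, the means were 2.74% and 2.34% (exact permutation test, p = 0.371). At starts the p was 1 and away from starts 0.571 (exact permutation tests, n = 4 each). The median line position of gene-start peaks was 20.1% ± 15.3 and 18.1% ± 5.06 (SD, n = 4 each; exact permutation test, p = 0.886). On the 8 chromatins with both antibodies, the effect of the construct on this position was larger in anti-FLAG than in anti-HMR by 28.4 percentage points (exact permutation test, p = 0.0286, the smallest possible, adjusted 0.0762), which does not pass 0.05 after adjustment. By Fisher's exact test 0 regions of the genome, on chromosome 4 or elsewhere, passed an unadjusted 0.05 in anti-HMR in either direction (background 0%).

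On the same chromatin, the chromosome 4 share was lower in anti-FLAG in 7 of 8 chromatins, by 0.686 percentage points on average (1.71% ± 0.395 against 2.39% ± 0.620, SD, n = 8; exact sign-flip permutation test, p = 0.0234, adjusted 0.0682, which does not pass 0.05). In lists of equal length the difference (anti-FLAG minus anti-HMR) was -3.71 percentage points (exact sign-flip permutation test, p = 0.00781, n = 8). The mean difference was -0.437 ± 0.543 points with HMRwt-tg and -0.936 ± 0.542 with HMRdC-tg (SD, n = 4 each; exact permutation test, p = 0.229), so it was not shown to depend on the construct.

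Of the 167 regions, 93 were called by no anti-FLAG list and 11 by no anti-HMR list, whereas 63 were called by both. With 75 of the single-list regions from one anti-HMR list, the first of these counts moves with that list. Neither these counts nor those that follow were made over all 12046 regions. They describe chromosome 4 and do not show that it differs from the rest of the genome. Called in at least 4 of 8 anti-HMR lists and in 0 anti-FLAG lists were 2 regions, and the converse (at least 5 of 10 anti-FLAG and 0 anti-HMR lists) held for 0. The 2 lie upstream of Asator (chr4:490100-490396) and in an intron of the metabotropic glutamate receptor mGluR (chr4:941394-941689). Each was in 8 of 8 anti-HMR and 0 of 10 anti-FLAG lists (exact sign test, p = 0.00781, the smallest that 8 chromatins allow, adjusted p = 0.884). The region upstream of Asator stood at 7.42% to 23.9% in HMRwt-tg and 7.25% to 36.7% in HMRdC-tg lists of anti-HMR. The intron of the same gene was called in all 10 anti-FLAG and 5 of 8 anti-HMR lists.

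In total, 5 regions of chromosome 4 (2.99%, background 2.62% of all regions) were called more often by anti-HMR than by anti-FLAG on the same chromatin at an unadjusted p under 0.05, and 0 more often by anti-FLAG (background 0.324%). The share of the 5 was near that of the genome. Besides the above pair they were the start of RpS3A (8 of 8 anti-HMR and 1 of 10 anti-FLAG lists), an intron of pan (8 and 3) and a place between genes (chr4:415553-415799, 7 and 1). The regions that leaned most to anti-FLAG were the start of Pur-alpha, a single-strand nucleic acid binding protein (9 of 10 against 4 of 8 lists), the Asator intron, the region beside pan (10 of 10 against 5 of 8 lists) and the start of Actbeta (7 of 10 against 3 of 8). All 8 anti-HMR lists called 22 regions, 14 of them at gene starts.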

How the data were processed

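ChIP-seq peaks of 18 libraries from SL2 cells were compared. Single-end reads of 50 bp were aligned by the authors (bowtie2 2.2.9, dm6) and filtered for a mapping quality of at least 2 (samtools 1.3.1). Peaks were called library by library (Homer 4.9, factor mode, -F 2). The deposited lists hold chromosome, start and end of 200 bp peaks (1 peak of another width), with no score, so that depth and counting intervals are unknown.

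Peaks sharing at least 1 bp were merged over all 18 lists. Genes, transcript starts and elements are from Ensembl release 115 and sequences from RefSeq, both in dm6 coordinates. Arms are chromosomes 2 and 3 outside the pericentromeric territories (2L from 21 Mb, 2R to 5.6 Mb, 3L from 22 Mb, 3R to 4.1 Mb). The share is the percentage of a list's peaks on chromosome 4. Groups were compared by two-sided exact permutation over libraries, antibodies and chromosomes by exact sign-flip permutation over chromatins or libraries, with Benjamini-Hochberg adjustment over 32 tests. For single regions, presence was compared by Fisher's exact test or, between antibodies, an exact sign test over 8 chromatins, adjusted over 12046 regions. On simulated presence and absence, 200 regions were planted in every HMRwt-tg and no HMRdC-tg anti-FLAG list. Such a pattern always passes Fisher's exact test at an unadjusted p under 0.05. All 200 were called, with 22 others of 12046, which checks the code and not the power of the test.

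Regions were named where called in all 18 lists, where the constructs (by at least 3 libraries) or antibodies differed most (up to 5 per direction), and where first or last along the chromosome in at least 9 lists, besides genes of 4 lists. Regions beside pho, ey, Gyf, Cals, Mitf and PIP4K, and the pair at Sox102F, were chosen after their values were seen. The members, lists and tests were chosen with earlier results of these data known. Line positions and log2 ratios were added after seeing the data. The alternatives were another denominator, equal-length lists, other start windows, a stricter overlap, ranks in place of values, single libraries left out and the NEBNext libraries left out. Python 3.11.15, numpy 2.4.6 and scipy 1.17.1 were used.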

Additional observations from a re-analysis of the deposited data

Results flagged for a closer look

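Of 48 groups of libraries screened for a library far from the rest of its group, 6 had one, and chance gives about 1 in 20. The share of the list on chromosome 4 away from gene starts was 1.505% in anti-FLAG HMRwt-tg library 2 and 0.678% to 0.814% in the other 4 libraries. The same library had 36.4% of its chromosome 4 peaks at gene starts, against 57.8% to 62.5%, and 69.3% of its arm peaks, against 75.8% to 77.9%. It held 11 chromosome 4 peaks. Anti-HMR HMRwt-tg library 3, with the longest list, had 31.65% of its chromosome 4 peaks at gene starts, against 61.7% to 63.9% in the other 3. Anti-HMR HMRdC-tg library 3 had 46.5%, against 62.5% to 63.0%. Anti-HMR HMRdC-tg library 1 had 0.911% of its list on the centromere-proximal side of chromosome 4, against 1.31% to 1.34%.

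The effect of the construct on the median line position of chromosome 4 gene-start peaks was compared between the antibodies on the same chromatin. The anti-FLAG value minus the anti-HMR value was 21.2 ± 13.03 percentage points with HMRwt-tg and 49.6 ± 4.79 with HMRdC-tg (SD, n = 4 each), a difference of 28.4 (exact permutation test, p = 0.0286, adjusted 0.0762, which does not pass 0.05).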

How the results depend on the processing

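Of 364 alternatives over 27 results, 320 kept the direction and the side of the threshold or, for counts, stayed within 1.5 times. In lists of equal length, the anti-FLAG difference (HMRdC-tg minus HMRwt-tg) in the gene-start share was -1.20 percentage points and passed 0.05. It also passed with autosomal peaks as the denominator (-0.41) and with 500 bp around the start (-0.407). The difference in the share away from starts passed 0.05 with 100 bp around the start (-0.348) and with protein-coding starts (-0.30). The distal share (-0.415 without the NEBNext libraries), the line position away from starts (-14.45 by ranks, -10.4 with 100 bp) and the anti-HMR excess of starts over the arms (6.92 with 500 bp) no longer passed. Equal-length lists gave 47 regions, 12 of them recurrent, 5 regions called more often in HMRwt-tg (10.6%, background 3.73% of 1529), 14 more often by anti-HMR (29.8%, background 9.42%) and 1 more often by anti-FLAG (2.13%, background 6.47%). Joining at 100 bp gave 1 more often by anti-FLAG (0.578%, background 0.404%). The causes were not tested, except that equal-length lists hold fewer peaks.

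When single libraries were left out, the anti-HMR differences between constructs changed sign (share -0.40 to 0.135, at starts -0.337 to 0.167, away -0.168 to 0.0302), and none passed 0.05. The anti-FLAG differences ranged from -0.392 to -0.236 at starts and from -0.344 to -0.137 away from them. The line position away from starts ranged from -18.4 to -12.3, with an exact permutation p of 0.0556 without HMRwt-tg library 2 or 4. The anti-HMR excess of starts ranged from 6.66 to 11.3. Single regions ranged from 3 to 9 for HMRwt-tg, from 3 to 5 for anti-HMR and from 0 to 1 for anti-FLAG, and all regions from 92 to 168. No paired analysis was possible because the labels give no replicate numbers for the constructs. Antibodies were paired by the chromatin they share. With 11 to 139 peaks on the chromosome in a list, small differences could not be detected.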
